A study of Mus musculus with 27 samples.

Results

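The lungs of female C57BL/6J mice, 10 to 12 weeks old at irradiation, were compared 24 h after X-irradiation of the whole thorax with 12.5 Gy or after sham irradiation (0 Gy). The comparison used the arrays whose titles name this strain and these doses, 3 sham and 3 irradiated, which are 6 of the 27 arrays of the series. C57BL/6J is an inbred strain that the study treats as the resistant one. The study also irradiated C57L/J and CBA/J mice and used a dose of 15 Gy, and it asked which early lung transcripts differ between strains with different late lung injury. Each array held the RNA of the right upper lobe of a separate mouse, with no pooling, and only RNA with an integrity number above 9 was used. Values are Affymetrix probe set intensities on the log2 scale, so that a change of 1 is a doubling, and each gene is represented by its brightest probe set.

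Ionizing radiation breaks DNA, and the transcription factor p53 is stabilized in the cells that sense the breaks. It then switches on a small set of genes that stop the cell cycle, start programmed death or help repair, while the genes of mitosis are shut off. Lymphocytes, and B cells above all, are among the cell types known to be lost most readily after radiation, whereas the epithelium that makes surfactant divides slowly. MHC class II molecules, which present peptides to helper T cells, are made by B cells, dendritic cells and macrophages, and in the lung also by type II alveolar cells.

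The arrays were alike in scale, with median intensities between 146 and 156 and pairwise correlations of log2 values between 0.93 and 0.96. Defining lung markers were high on all of them. Sftpc, the surfactant protein of type II cells, ran from 14.52 to 14.93, Ager of type I cells from 14.50 to 14.72 and Scgb1a1 of club cells from 14.85 to 15.28. Skeletal muscle transcripts stood apart on irradiated arrays 1 and 2. The creatine kinase Ckm read 10.99, 13.43 and 8.92 on irradiated arrays 1, 2 and 3, against 9.76, 8.91 and 8.68 on the sham arrays, and the muscle actin Acta1 read 12.04, 14.34 and 5.50 against 5.38, 6.35 and 6.57. The mean of 20 muscle genes was 9.13, 11.50 and 6.73 on the irradiated arrays and 6.85 to 7.37 on the sham arrays. Squamous keratins followed the same arrays, with Krt4 at 10.74, 14.06 and 6.03 after irradiation and 5.88 to 6.89 in sham lungs. The fat marker Adipoq varied within both groups, from 6.87 to 11.49 and from 9.88 to 12.54. Rag1, which marks immature lymphocytes of the thymus, read 6.91 and 7.31 on sham arrays 1 and 3, 2.79 on sham array 2, and 2.35 or less after irradiation. In all, 78 genes with a mean of at least 7 in the higher group were at least 2 log2 units brighter on irradiated arrays 1 and 2 than on array 3, a spread that by itself keeps a gene from being called. Irradiated array 3 had muscle transcripts at the sham level, and its values are given beside results below.

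**Figure D1:**
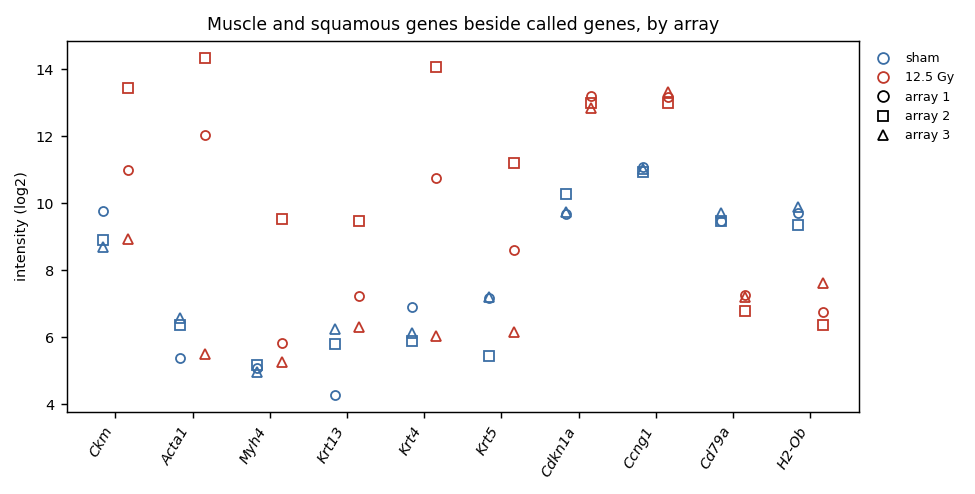
Log2 intensity of 3 skeletal muscle genes (Ckm, Acta1, Myh4), 3 squamous keratins (Krt13, Krt4, Krt5) and 4 called genes on each array, sham in blue and 12.5 Gy in red, with a symbol for each array. Irradiated arrays 1 and 2 stand above the sham arrays in Ckm, Acta1 and Krt4 while array 3 does not, and the 3 irradiated arrays lie together in Cdkn1a, Ccng1 and Cd79a.

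At 24 h the irradiated C57BL/6J lung had higher transcripts of p53 target genes and lower transcripts of B cells, T cells, MHC class II and dividing cells. By limma, 95 of 18194 genes passed an adjusted p of 0.05, which is 0.522% of the genes, 25 of them higher (0.137%) and 70 lower (0.385%). At an unadjusted p of 0.01, the study's criterion, 659 genes passed (3.62%), 176 higher (0.967%) and 483 lower (2.65%). The median change over all genes was -0.01, and 47.9% of genes were higher without regard to a test. The groups did not overlap for any of the 95 called genes, while over all genes 6.8% had every irradiated array above every sham array and 11.3% had every one below. With 3 arrays a group the adjusted calls stood close to the limit: leaving out any of the 6 arrays gave 0 calls. All 95 genes kept an unadjusted p under 0.01 each time, but they were chosen on these same arrays. Since their groups did not overlap, no array left out could turn a direction. A test on a single gene by exact permutation cannot go below p = 0.1 with 3 against 3, so all p-values here are those of limma, which pools the spread over genes.

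**Figure D2:**
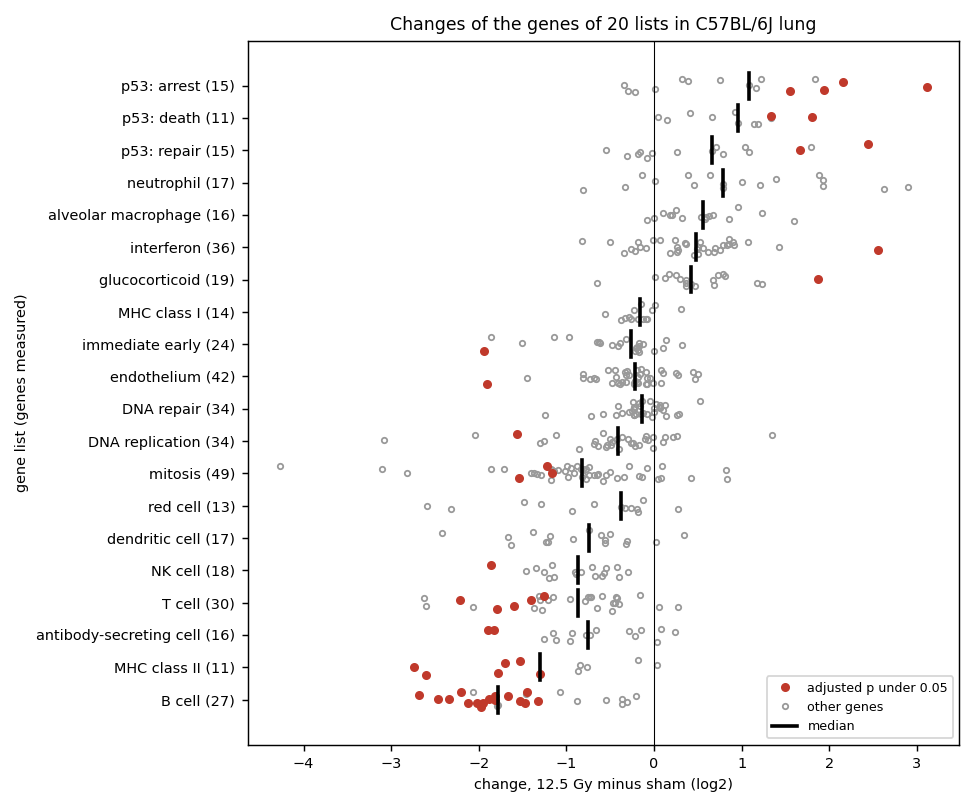
Change of every measured gene in 20 gene lists, 12.5 Gy minus sham, on the log2 scale. Filled red points passed an adjusted p of 0.05, open grey points did not, and black bars are medians. The p53 target lists lie to the right with medians of 1.09, 0.96 and 0.67, and the B cell and MHC class II lists to the left with medians of -1.78 and -1.30.

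Targets of p53 that arrest the cell cycle or feed back on p53 were higher after irradiation. Of 15 measured, 4 rose and 0 fell by the adjusted test, 9 were higher at an unadjusted p of 0.01, and their median change was 1.09. Cdkn1a, the p21 inhibitor of cyclin-dependent kinases, read 9.68, 10.26 and 9.73 in sham lungs and 13.18, 12.99 and 12.85 after 12.5 Gy. It rose by 3.12 ± 0.20 (SE), an 8.67-fold change, with an adjusted p of 0.0206, the largest rise among called genes with a mean of at least 7. The groups were separated by more than 2 log2 units, and irradiated array 3, the lung without muscle transcripts, was the lowest of the irradiated arrays, with a change of 2.96.

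Ccng1, a cyclin that acts on the p53 inhibitor Mdm2, read 11.07, 10.93 and 11.01 in sham lungs and 13.17, 12.99 and 13.31 after irradiation. The arrays of each group lay within 0.4 of one another, and the rise was 2.16 ± 0.14 (adjusted p = 0.0206). Phlda3, which restrains the kinase Akt, rose by 1.94 ± 0.13 from 10.14, 10.38 and 10.14 to 12.26, 12.15 and 12.09 (adjusted p = 0.0206). Psrc1, a spindle protein and p53 target, rose by 1.55 ± 0.16 (adjusted p = 0.0349). Mdm2 itself, the ubiquitin ligase that removes p53, moved less, by 0.75 ± 0.14 from 10.04 to 10.31 in sham lungs and 10.80 to 11.07 after irradiation, and with an adjusted p of 0.132 it was not called although its groups did not overlap. Zmat3 and Sesn2 had changes of 1.22 ± 0.16 and 1.16 ± 0.24 and adjusted p-values of 0.0515 and 0.166.

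**Figure D3:**
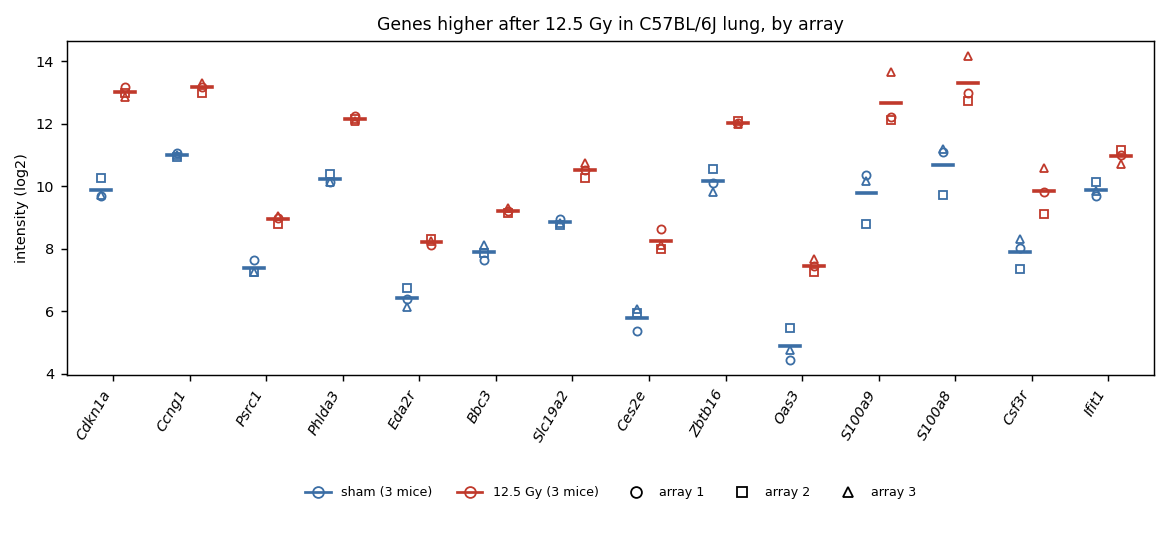
Log2 intensity of 14 genes on each array, sham in blue and 12.5 Gy in red, with bars at the group means and a symbol for each array. The groups do not overlap for any of the 14 genes. The first 10, from Cdkn1a to Oas3, passed an adjusted p of 0.05, and S100a9, S100a8, Csf3r and Ifit1 did not.

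The p53 targets of cell death moved the same way. All 11 measured were higher, 2 of them rose by the adjusted test and 5 had an unadjusted p under 0.01. Eda2r, a member of the TNF receptor family, read 6.40, 6.73 and 6.14 in sham lungs and 8.11, 8.32 and 8.26 after irradiation, a rise of 1.81 ± 0.19 (adjusted p = 0.0343). Bbc3, which encodes the pro-apoptotic BH3-only protein PUMA, rose by 1.34 ± 0.16 from 7.65, 7.87 and 8.12 to 9.20, 9.14 and 9.30 (adjusted p = 0.0435). Pmaip1, the related protein NOXA, and the nuclease Aen had changes of 1.19 ± 0.23 and 1.34 ± 0.21 but adjusted p-values of 0.148 and 0.0849.

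Among 15 targets of repair and metabolism 2 rose, and 5 were higher at an unadjusted p of 0.01, with a median of 0.67, or 0.42 on irradiated array 3 alone. Ces2e, a carboxylesterase, rose by 2.45 ± 0.27 from 5.36, 5.94 and 6.08 to 8.64, 7.98 and 8.11 (adjusted p = 0.0379), and Slc19a2, a thiamine transporter, by 1.66 ± 0.16 (adjusted p = 0.0343). The defining genes of this list were not called. Xpc and Ddb2, which recognize damage for nucleotide excision repair, changed by -0.16 ± 0.14 and -0.08 ± 0.20, and the ribonucleotide reductase subunit Rrm2b by 0.26 ± 0.21. Of 34 further DNA repair genes 0 were called, and 3 were lower at an unadjusted p of 0.01.

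Promoters of these targets were searched for the p53 consensus, a stretch of 20 bases whose consensus reads alike on both strands. Up to 3 mismatches were allowed, but none at the core C and G of its repeated unit, and no gap. In RefSeq promoters (250 bases before to 50 after the start, build GRCm38.p6) a match was found for 9 of 33 target genes, 27.3%, against 1.72% of the 14453 array genes with a promoter sequence. The median change was 1.34 for targets with a match and 0.73 for those without. The called targets with a match were Cdkn1a and Ccng1, each with 1 mismatch, and Bbc3 with 3. The called targets Phlda3, Eda2r, Psrc1, Slc19a2 and Ces2e had no match under these limits. The matching stretches are shown with the match in capitals and the strand of the gene. They lie at chr17:29090898-29090977 (+) for Cdkn1a, chr11:40755432-40755511 (-) for Ccng1 and chr7:16309456-16309535 (+) for Bbc3.
Cdkn1a: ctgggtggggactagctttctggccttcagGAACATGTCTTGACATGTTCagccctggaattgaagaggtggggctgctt
Ccng1: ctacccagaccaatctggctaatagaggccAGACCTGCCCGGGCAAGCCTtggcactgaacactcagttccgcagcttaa
Bbc3: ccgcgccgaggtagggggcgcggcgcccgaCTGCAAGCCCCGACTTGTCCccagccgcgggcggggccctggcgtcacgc

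Several called rises lay outside the p53 lists. Celf5, an RNA-binding protein, rose by 2.53 ± 0.26 from 5.93, 5.50 and 5.54 to 8.39, 7.68 and 8.48 (adjusted p = 0.0347). Dglucy, a mitochondrial enzyme of D-glutamate metabolism, rose by 1.77 ± 0.15 (adjusted p = 0.0244), and Exoc4, a subunit of the exocyst, by 1.62 ± 0.18 (adjusted p = 0.0379), Exoc4 being named after its values were seen. The unnamed transcript 8430419K02Rik rose by 2.72 ± 0.25 from values of 4.44 to 4.80 to values of 7.01 to 7.84 (adjusted p = 0.0281). H3f3b, a gene of histone H3.3, rose by 1.79 ± 0.23, with an adjusted p just under the limit. Of the 25 called rises 7 had means under 7 in both groups and were therefore dim.

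Zbtb16, a zinc finger transcription factor that glucocorticoids induce, read 10.10, 10.56 and 9.81 in sham lungs and 12.01, 12.08 and 12.00 after irradiation. It rose by 1.87 ± 0.21, a 3.66-fold change (adjusted p = 0.0387). It was the 1 called gene of 19 glucocorticoid-responsive genes, whose median was 0.42. Of the 19, 18 were higher, 12 of them with groups that did not overlap (6.8% of all genes). Fkbp5, a chaperone of the glucocorticoid receptor, changed by 0.81 ± 0.17 (adjusted p = 0.170), Ddit4, an inhibitor of mTOR signalling, by 1.17 ± 0.24 (adjusted p = 0.165) and Tsc22d3, the leucine zipper protein GILZ, by 0.36 ± 0.15 (adjusted p = 0.462).

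Interferon-stimulated genes stood higher as a group, with 1 called. Oas3, an enzyme that activates RNase L, read 4.45, 5.47 and 4.75 in sham lungs and 7.44, 7.24 and 7.67 after irradiation, a rise of 2.56 ± 0.29 (adjusted p = 0.0387). Of 36 genes measured, 27 were higher, 6 at an unadjusted p of 0.01, and the median was 0.47. On irradiated array 3 alone the median was 0.29, and the list mean there was 9.38 against 9.37 on sham array 2. Ifit1, which binds foreign RNA, changed by 1.07 ± 0.18 (adjusted p = 0.110), Ifi27l2a by 1.42 ± 0.21 (adjusted p = 0.0728) and the master regulator Irf7 by 0.83 ± 0.24 (adjusted p = 0.315).

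Neutrophil genes were higher without passing the adjusted test. S100a9, a subunit of the calprotectin stored by neutrophils, read 10.36, 8.78 and 10.17 in sham lungs and 12.23, 12.13 and 13.64 after irradiation. The groups did not overlap and the difference was 2.90 ± 0.59, but the arrays within a group differed by up to 1.6, and the adjusted p was 0.159. Its partner S100a8 differed by 2.62 ± 0.55 (adjusted p = 0.168) and Csf3r, the receptor of granulocyte colony-stimulating factor, by 1.93 ± 0.44 (adjusted p = 0.196). Over 17 neutrophil genes 0 were called, 5 were higher at an unadjusted p of 0.01, and the median was 0.79. Irradiated array 3, which lacked the muscle transcripts, was the highest array for these 3 genes, and its median over the list was 1.02 above sham.

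B cell genes gave the most falls. Of 27 measured, all 27 were lower, 16 fell by the adjusted test, 20 had an unadjusted p under 0.01, and the median was -1.78. In whole lung tissue fewer cells of a type and less RNA per cell cannot be told apart. Cd79a, the signalling chain of the B cell receptor, read 9.47, 9.47 and 9.71 in sham lungs and 7.28, 6.78 and 7.19 after irradiation, a fall by 2.47 on the log2 scale (SE 0.18, adjusted p = 0.0215), or 5.55-fold lower.

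Ms4a1, the surface protein CD20, read 11.19, 10.88 and 11.40 in sham lungs and 9.22, 9.01 and 9.17 after irradiation, a change of -2.03 ± 0.17 (adjusted p = 0.0250). Fcer2a, the low-affinity IgE receptor CD23, changed by -2.68 ± 0.20 from 9.93, 9.65 and 9.37 to 7.18, 6.94 and 6.78 (adjusted p = 0.0215). Cxcr5, the chemokine receptor that guides B cells to follicles, changed by -2.34 ± 0.15 from 8.23, 8.32 and 8.20 to 5.70, 5.88 and 6.13 (adjusted p = 0.0206). In all 3 genes every irradiated array was more than 1.5 below every sham array. The transcription factor Spib and the inhibitory receptor Btla fell by 2.20 and 2.13 (adjusted p = 0.0206 and 0.0343).

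Genes of antibody-secreting cells were less uniform. Of 16 measured 2 fell, 13 were lower, and the median was -0.75. The light chain segment Igkv8-30 fell by 1.90 (SE 0.16, adjusted p = 0.0244), and Ighv14-2, a heavy chain segment outside the list, by 2.94 (SE 0.21, adjusted p = 0.0206), the largest fall among called genes with a mean of at least 7. Such segments share sequence with their relatives, so their probe sets may read several. Ighm, the constant region of IgM, read 10.94, 12.59 and 10.23 in sham lungs and 11.21, 10.99 and 8.73 after irradiation, with overlap and an adjusted p of 0.723, and its 11 probe sets did not share a direction. Jchain, which joins antibodies into polymers, changed by -0.28 ± 0.52.

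MHC class II genes were lower as well. Of 11 measured 6 fell, 10 were lower, 9 had an unadjusted p under 0.01, and the median was -1.30. The largest changes were in the chains of H2-O, which in B cells inhibits the loading of peptides. H2-Ob read 9.72, 9.34 and 9.88 in sham lungs and 6.74, 6.37 and 7.61 after irradiation, a change of -2.74 ± 0.35 with an adjusted p just under 0.05. H2-Oa changed by -2.61 ± 0.22, from 8.49, 8.88 and 8.54 to 5.80, 5.88 and 6.42 (adjusted p = 0.0244).

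Ciita, the coactivator that class II genes require, read 8.57, 9.11 and 8.86 in sham lungs and 6.76, 7.08 and 7.37 after irradiation, a change of -1.78 ± 0.22 (adjusted p = 0.0481). Among the chains that bind peptide, H2-Eb1 changed by -1.53 ± 0.19 from 12.59, 13.06 and 12.59 to 11.40, 11.03 and 11.21 (adjusted p = 0.0483; named after its values were seen), and H2-Ab1 by -1.30 ± 0.17. H2-Aa and the invariant chain Cd74 changed less, by -0.77 ± 0.18 and -0.87 ± 0.15, with adjusted p-values of 0.211 and 0.113. MHC class I genes, which most cells make, were a little below sham lungs, with 0 of 14 called and a median of -0.16. Of the 14, 12 were lower, 3 of them with groups that did not overlap (11.3% of all genes). B2m, their shared light chain, changed by 0.01 ± 0.14.

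Class II promoters are known for an X box and a Y box that bind the factors which recruit Ciita. GATTGG, the core of the Y box, was searched on both strands, and it contains the reverse complement of CCAAT. It was found in the promoters of 6 of 7 class II genes with a promoter sequence (85.7%), against 21.6% of array genes. GCAACA, a core of the X box, was found in 2 of 7 (28.6%) against 12.9%. The pair was found in the same 2, H2-Oa and H2-Ob. Their changes were the largest of the list, and a link with the motifs was not tested. Only exact letters were counted, so gcaact in the H2-Eb1 stretch below, which differs in its last base, was not. Stretches of 80 bases that end 20 bases before the start are shown for the 4 called genes with a sequence, with both motifs in capitals, at chr17:34238805-34238884 for H2-Ob, chr17:34092279-34092358 for H2-Oa, chr17:34145149-34145228 for H2-DMb2 and chr17:34305767-34305846 for H2-Eb1, all on the + strand.
H2-Ob: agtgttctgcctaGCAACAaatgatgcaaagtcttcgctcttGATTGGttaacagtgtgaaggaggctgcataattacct
H2-Oa: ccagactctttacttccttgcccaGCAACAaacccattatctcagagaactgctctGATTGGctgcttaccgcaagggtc
H2-DMb2: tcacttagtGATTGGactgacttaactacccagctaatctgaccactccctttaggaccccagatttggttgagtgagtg
H2-Eb1: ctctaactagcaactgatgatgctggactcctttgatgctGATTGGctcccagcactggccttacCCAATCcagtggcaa
In H2-Ob the X box letters began 87 bases before the start and the Y box letters 58 bases before it, and in H2-Oa 76 and 44 bases before it.

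T cell genes were mostly lower. Of 30 measured 5 fell, 28 were lower, 13 had an unadjusted p under 0.01, and the median was -0.87. Cd3d, a chain of the T cell receptor complex, read 9.27, 8.81 and 9.26 in sham lungs and 7.34, 7.58 and 7.62 after irradiation, a change of -1.60 ± 0.18 (adjusted p = 0.0387). Cd3g of the same complex changed by -1.41 ± 0.15 (adjusted p = 0.0349), while Cd3e changed by -0.48 ± 0.17 and was not called (adjusted p = 0.408). Ccr7, which directs naive T cells to lymph nodes, and Itgae, the CD103 integrin chain of tissue lymphocytes and some dendritic cells, changed by -1.79 ± 0.14 and -2.22 ± 0.15 (adjusted p = 0.0226 and 0.0206). Rag1 of the thymus marks sham arrays 1 and 3. The mean of the T cell list was 7.70 and 7.87 on these, 7.58 on sham array 2, and 6.49 to 6.82 after irradiation. The part of thymus transcripts in the falls was not tested. Leaving sham arrays 1 and 3 out left sham array 2 alone in its group. The groups of the 95 called genes did not overlap, so no direction could turn, and that fit says nothing about stability.

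Genes of natural killer and cytotoxic cells were all lower, 18 of 18, with a median of -0.87 and 1 call. Ccl5, a chemokine of cytotoxic cells, read 11.36, 11.55 and 11.12 in sham lungs and 9.31, 9.30 and 9.84 after irradiation, a change of -1.86 ± 0.21 (adjusted p = 0.0387). Nkg7, a granule protein, and S1pr5, which lets natural killer cells leave the marrow, changed by -1.26 ± 0.17 and -1.35 ± 0.18 and were not called (adjusted p = 0.0545 and 0.0597). Of 17 dendritic cell genes 0 were called, 15 were lower and the median was -0.75; the transcription factors Irf8 and Batf3 changed by -1.23 ± 0.19 and -1.38 ± 0.23 (adjusted p = 0.0758 and 0.105).

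**Figure D4:**
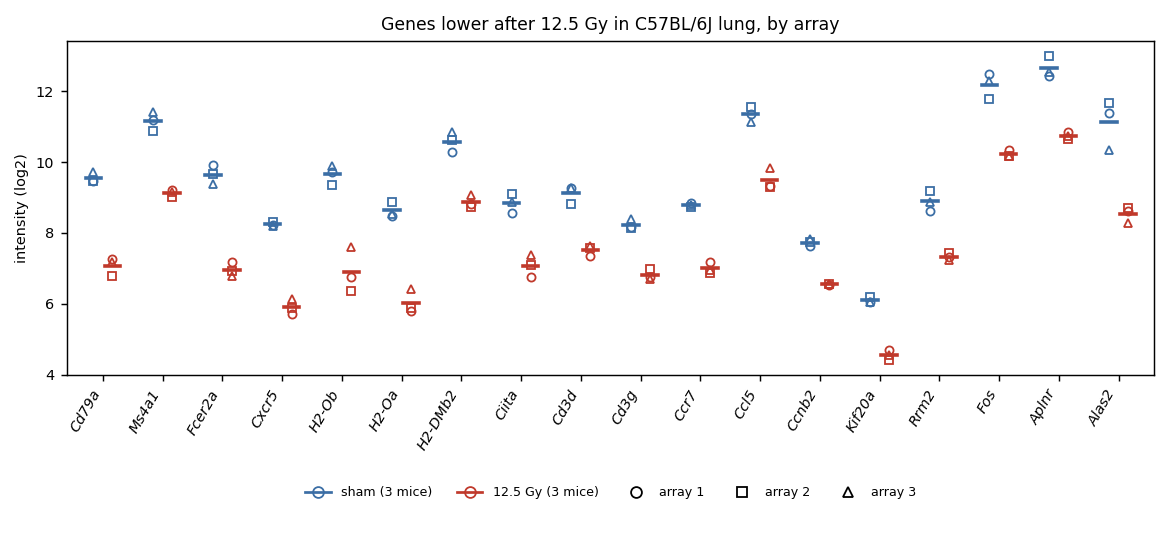
Log2 intensity of 18 genes on each array, sham in blue and 12.5 Gy in red, with bars at the group means and a symbol for each array. The genes of B cells, MHC class II, T cells and dividing cells, and Fos, Aplnr and Alas2, are lower on every irradiated array than on any sham array. Of the 18, Alas2 did not pass an adjusted p of 0.05.

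Genes of mitosis were lower as a group, with few single genes called. Of 49 measured, 43 were lower, 30 with groups that did not overlap (11.3% of all genes), and the median was -0.83. At an unadjusted p of 0.01, 20 were lower, and 3 fell by the adjusted test. Ccnb2, a cyclin of mitotic entry, read 7.62, 7.75 and 7.82 in sham lungs and 6.54, 6.56 and 6.56 after irradiation, a change of -1.17 ± 0.12 (adjusted p = 0.0343). Kif20a, a motor of cytokinesis, fell by 1.54 (SE 0.13, adjusted p = 0.0250) at a low intensity of 6.05 to 6.19 in sham lungs. Nusap1, a spindle protein, fell by 1.22 by its brightest probe set (SE 0.15, adjusted p = 0.0469), and its other probe set went the other way.

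Mki67, the proliferation marker Ki-67, read 8.73, 9.51 and 9.01 in sham lungs and 2.77, 5.18 and 6.49 after irradiation. This was a difference of -4.27 ± 0.93 whose spread among irradiated arrays left an adjusted p of 0.182. Of 34 genes of DNA replication 29 were lower, 20 with groups that did not overlap (11.3% of all genes), 8 had an unadjusted p under 0.01, and the median was -0.41. The adjusted test called 1 fall, Rrm2, the inducible subunit of ribonucleotide reductase, by 1.56 (SE 0.18, adjusted p = 0.0387). The replicative helicase genes Mcm5 and Mcm2 changed by -1.30 ± 0.18 and 0.12 ± 0.33 (adjusted p = 0.0609 and 0.912). The 2 probe sets of Mcm2 went opposite ways, at -0.83 and 0.12.

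The promoters of mitotic genes are known for the cell cycle homology region, with the core TTTGAA, and for CCAAT boxes. TTTGAA on either strand was found in 30 of the 41 mitosis genes with a promoter sequence (73.2%), against 15.7% of array genes, and both motifs in 27 (65.9%) against 6.21%. In the DNA replication list TTTGAA was found in 4 of 28 genes (14.3%). Among mitosis genes the median change was -0.92 with TTTGAA and -0.64 without, and 13 of the 17 that were lower at an unadjusted p of 0.01 held it, as did 17 of the other 24. Stretches of 110 bases that end 10 bases after the start are shown for the called gene Ccnb2 and for 3 genes chosen after their values were seen, with both motifs in capitals, at chr9:70421545-70421654 (-) for Ccnb2, chr4:118437334-118437443 (-) for Cdc20, chr2:164769829-164769938 (+) for Ube2c and chr11:99024180-99024289 (-) for Top2a.
Ccnb2: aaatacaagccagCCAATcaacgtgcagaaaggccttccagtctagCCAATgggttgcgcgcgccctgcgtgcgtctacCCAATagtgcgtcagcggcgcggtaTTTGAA
Cdc20: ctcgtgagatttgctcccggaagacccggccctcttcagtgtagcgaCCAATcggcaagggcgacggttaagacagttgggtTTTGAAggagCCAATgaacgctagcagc
Ube2c: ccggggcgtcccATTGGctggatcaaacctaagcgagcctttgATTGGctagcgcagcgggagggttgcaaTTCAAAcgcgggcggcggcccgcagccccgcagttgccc
Top2a: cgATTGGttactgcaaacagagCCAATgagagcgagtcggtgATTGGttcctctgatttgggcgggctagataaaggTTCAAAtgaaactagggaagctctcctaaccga
The anaphase activator Cdc20, the ubiquitin-conjugating enzyme Ube2c and the topoisomerase Top2a changed by -1.18 ± 0.22, -1.87 ± 0.32 and -1.33 ± 0.20, with adjusted p-values of 0.130, 0.110 and 0.0705.

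Immediate early genes, which respond to stimulation within minutes, included 1 of the called falls. Fos, a subunit of the AP-1 factor, read 12.48, 11.77 and 12.29 in sham lungs and 10.34, 10.18 and 10.18 after irradiation, a change of -1.95 ± 0.21 (adjusted p = 0.0366). Egr1 and Nr4a1, transcription factors of the same early response, changed by -1.86 ± 0.24 and -1.51 ± 0.24 with adjusted p-values of 0.0501 and 0.0882, and Jun, the partner of Fos, by -0.12 ± 0.13. Of 24 genes 21 were lower, 7 at an unadjusted p of 0.01, and the median was -0.26. Ptgs2, the inducible cyclooxygenase of prostaglandin synthesis, read 9.89, 9.59 and 9.69 in sham lungs and 8.56, 8.08 and 8.43 after irradiation (adjusted p = 0.0515).

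Endothelial genes were lower by a little, with a median of -0.22 over 42 genes, 34 of them lower. Aplnr, the apelin receptor of lung microvessels, read 12.42, 12.99 and 12.53 in sham lungs and 10.84, 10.64 and 10.74 after irradiation, a change of -1.91 ± 0.19 (adjusted p = 0.0343), or 3.75-fold lower, and the 1 call of the list. Sox17, a transcription factor of arterial endothelium, and Car4, a carbonic anhydrase of capillaries, each changed by -0.81 (adjusted p = 0.0695 and 0.134). The junction proteins Cdh5 and Pecam1 changed by -0.39 ± 0.15 and -0.41 ± 0.24 (adjusted p = 0.440 and 0.584).

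Among red cell genes Alas2, the haem synthesis enzyme of erythroid cells, read 11.38, 11.66 and 10.33 in sham lungs and 8.61, 8.70 and 8.27 after irradiation. The groups did not overlap, but the change of -2.60 ± 0.37 had an adjusted p of 0.0643. The anion exchanger Slc4a1 changed by -2.32 ± 0.39 (adjusted p = 0.107), and 0 of 13 red cell genes were called. Cyp26b1, which degrades retinoic acid, and the neuropeptide Grp changed by -1.81 ± 0.37 and -1.89 ± 0.42 (adjusted p = 0.157 and 0.189).

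Genes of the lung's epithelium were near their sham levels. No gene was called among 20 of type II cells and surfactant (median -0.05), 17 of type I cells (-0.03), 20 of club cells (-0.03) and 23 of ciliated cells (0.26, or 0.12 on irradiated array 3 alone), nor among 34 of matrix and TGF-beta (-0.11) or 23 NRF2 targets (0.11). Sftpc, Hopx and Scgb1a1 changed by -0.02 ± 0.17, 0.01 ± 0.13 and 0.06 ± 0.16. Of 16 genes listed for alveolar macrophages, 15 were higher with 0 calls and a median of 0.56, or 0.35 on irradiated array 3 alone. Their largest changes were in genes that fat also expresses, Fabp4 at 1.60 ± 1.15 and Cidec at 1.24 ± 0.97, both chosen after their values were seen. Within each group these were highest on irradiated array 2 and sham array 1, where Adipoq was high, and the part of fat in this was not tested. The scavenger receptor Marco changed by 0.96 ± 0.31 (adjusted p = 0.363) and the lectin Siglecf by 0.58 ± 0.60.

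In separate mice of the other strains most of the called genes moved the same way. Of the 25 genes higher in C57BL/6J, 22 were higher in C57L/J at 12.5 Gy and 21 in CBA/J, while 48% and 47.5% of all genes were. Of the 70 lower genes, 67 were lower in C57L/J and 67 in CBA/J, against 52% and 52.5% of all genes. At an unadjusted p of 0.01 and in the same direction, 13 and 53 of them passed in C57L/J, where 1.67% and 2.85% of all genes did (4.52% in all), and 11 and 52 in CBA/J, where 0.929% and 2.34% did (3.26% in all). By the adjusted test 12 of the rises and 12 of the falls passed in C57L/J, where 0.192% and 0.324% of genes did (0.517% in all). In CBA/J 2 of the rises and 1 of the falls passed, where 0.011% and 0.022% of genes did (0.033% in all). The median change of the rises was 2.00 in C57BL/6J, 1.72 in C57L/J and 1.38 in CBA/J, and that of the falls -1.72, -1.28 and -1.53. The genes were chosen for their size in C57BL/6J, so the larger medians there are partly fixed by the choice.

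**Figure D5:**
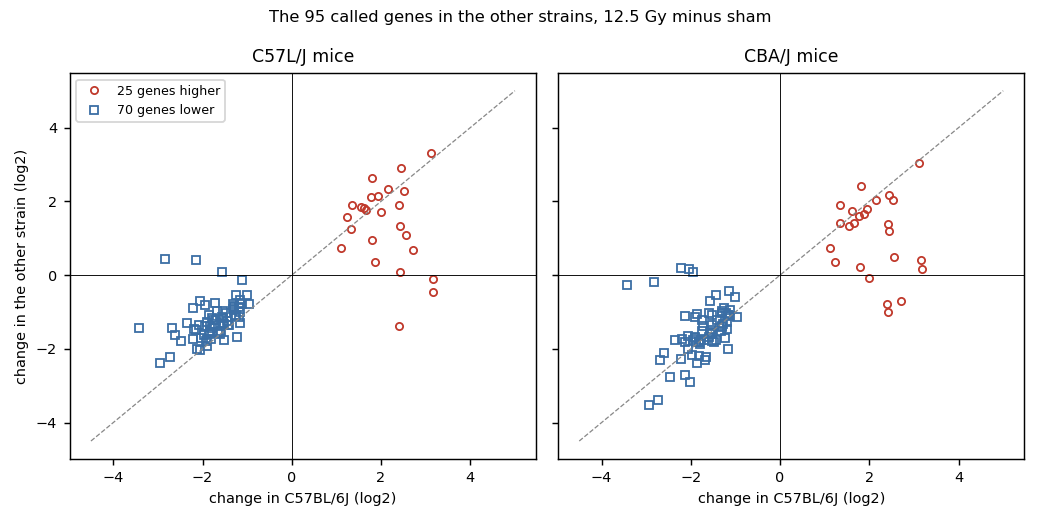
Change after 12.5 Gy of the 95 called genes in C57BL/6J mice (horizontal) against the change in C57L/J (left) or CBA/J mice (right), on the log2 scale, red circles for 25 genes higher and blue squares for 70 lower in C57BL/6J. The dashed line marks equal change. Most points lie at the lower left and upper right, and 22 of the rises and 67 of the falls have the same sign in C57L/J.

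The difference in dose effect between C57BL/6J and C57L/J was tested as an interaction, and 0 genes passed an adjusted p of 0.05 by limma, with 215 at an unadjusted p of 0.01 and 992 at 0.05, or 1.18% and 5.45% of genes. The 95 called genes were chosen on an arm of this contrast, so their own interaction p-values are not counted here. The values below are a description of single genes, and their intervals make no allowance for the choice. Zbtb16 changed by 1.87 in C57BL/6J, 0.36 ± 0.38 in C57L/J and 1.65 in CBA/J, and its difference between the first strains was 1.52 (95% interval 0.50 to 2.54, adjusted p = 0.828). Ptgs2 changed by -1.36 in C57BL/6J, 0.12 ± 0.25 in C57L/J and 0.25 in CBA/J, with a difference of -1.48 (-2.18 to -0.78, adjusted p = 0.723). Fos changed by -0.82 ± 0.32 in C57L/J and 0.09 in CBA/J, with a difference of -1.13 (-2.02 to -0.24, adjusted p = 0.864).

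Cdkn1a changed by 3.12, 3.30 and 3.03 in the C57BL/6J, C57L/J and CBA/J strains, and Aplnr by -1.91, -1.74 and -1.68. Their differences between C57BL/6J and C57L/J were -0.18 (-0.80 to 0.44) and -0.16 (-0.91 to 0.58). Cxcr5 changed by -1.31 in C57L/J, a difference of -1.03 (-1.54 to -0.52, adjusted p = 0.723). Csf3r of neutrophils changed by 1.93 in C57BL/6J, 0.43 in C57L/J and -0.12 in CBA/J, and its difference between C57BL/6J and C57L/J was 1.5 (0.21 to 2.79, adjusted p = 0.883). The medians of the neutrophil list were 0.79, 0.47 and 0.13 in these strains, those of the glucocorticoid list 0.42, 0.06 and 0.47, and those of the interferon list 0.47, 0.35 and -0.08. Differences between list medians, and between C57BL/6J and CBA/J, were not tested.

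Doses of 12.5 and 15 Gy gave 0 genes that differed by limma's adjusted test in C57BL/6J, with 103 genes at an unadjusted p of 0.01 and 583 at 0.05, 0.566% and 3.20% of genes. The mean of the p53 arrest list was 10.78, 10.64 and 10.84 on the 12.5 Gy arrays and 10.85, 10.64 and 10.72 on the 15 Gy arrays, against 9.72 to 9.85 in sham lungs. The mean of the B cell list was 7.61, 7.69 and 7.66 at 12.5 Gy and 7.84, 8.60 and 7.82 at 15 Gy, against 9.16 to 9.25 in sham lungs, so that all 15 Gy arrays lay above the 12.5 Gy arrays. For Cd79a the difference of 15 minus 12.5 Gy was 0.76 and for Ms4a1 0.72, with 0 genes of any list called. Of the 70 called falls 61 were less deep at 15 Gy, by a median of 0.50 over all 70, and 16 of the 61 had an unadjusted p under 0.05. The falls were chosen for their depth on the 12.5 Gy arrays. Over all genes the median difference was 0.01. Of the 25 called rises 14 were higher at 15 Gy and 11 lower, with a median difference of 0.08. Muscle genes were high on 15 Gy arrays 2 and 3, with list means of 11.89 and 11.54 against 7.03 on array 1.

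Some genes that the study discusses were not called by the adjusted test at 12.5 Gy in this strain. The study lists Rgs4, Specc1, Pon1, C1qb, Zfp319 and Ms4a6d at an unadjusted p under 0.01, a looser limit. It also lists Ighm, Cyp26b1 and Batf3, described above, at that limit. It too reports no difference between 0 and 12.5 Gy in C57BL/6J for Retnla, Auts2 and Gria1. Retnla, the resistin-like protein of alternatively activated macrophages and airway epithelium, read 12.49, 13.04 and 12.40 in sham lungs and 13.21, 12.97 and 12.51 after irradiation, with overlap and a change of 0.26 ± 0.26. In C57L/J it changed by 1.46 ± 0.18, and the difference of -1.21 (-1.95 to -0.46) had an adjusted p of 0.828. Auts2 and the glutamate receptor subunit Gria1 changed by -0.05 ± 0.18 and -0.13 ± 0.15. Rgs4, a regulator of G protein signalling, changed by -0.69 ± 0.14 with groups that did not overlap (adjusted p = 0.154). Specc1 changed by -0.49 ± 0.16, the paraoxonase Pon1 by -0.49 ± 0.16 and the complement gene C1qb by 0.69 ± 0.22, and none of these was called by the adjusted test. By limma Rgs4 passed the study's unadjusted limit of 0.01. Among the genes that did not pass it was C1qb (unadjusted p = 0.0217). Ms4a6d, with overlap and a change of 0.24 ± 0.24, did not pass it either (unadjusted p = 0.367 by limma). Zfp319 changed by -1.05 ± 0.28 (adjusted p = 0.270), and 2 of its 4 probe sets went the other way. The angiotensin receptor Agtr2 had the lowest interaction p of all genes, at 2.34 ± 0.54 in C57BL/6J and -3.29 ± 0.35 in C57L/J, but its values on the 6 sham and 12.5 Gy arrays of C57BL/6J lay between 0.98 and 4.64, below the mean of 7 used as the limit for dim genes, and the adjusted p of the difference was 0.210.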

How the data were processed

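The authors hybridized lung RNA of each mouse to 1 Affymetrix mouse genome array and deposited a linear intensity for every probe set. Their processing notes name Affymetrix Expression Console 1.1, but which summary algorithm was run is not given in the sources. Every array had a mean of 500 after trimming 2%, and no further scaling was applied. The number of arrays limits the precision.

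Intensities were floored at 1 and taken to log2. Of 45101 probe sets, 34958 had 1 gene symbol, 932 several and 9211 none, and only the first were used. The probe set brightest over the 18 arrays of C57L/J and C57BL/6J was taken for each of 18194 genes. Samples were grouped by their titles. Groups were compared with lmFit and eBayes of limma 3.58.1 (R 4.3.3), each fit on the arrays compared, with p-values adjusted over all genes (Benjamini-Hochberg) and called under 0.05; errors are limma's standard errors. Each array held a separate mouse, so p-values measure the spread between mice. The scripts were tested on simulated data. Promoters came from RefSeq (GRCm38.p6).

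The members and the 48 gene lists were chosen with earlier results of these data known. Named were the 12 largest rises and 18 largest falls among called genes with a mean of at least 7, up to 4 called members of each list, its first 3 genes, genes the study singles out, and up to 3 members at an unadjusted p under 0.01; not all are printed. Alternatives were the methods' random variance t test, a fit over 27 arrays, an intensity trend with robust prior, array weights, other probe sets per gene, a low-value filter (mean of at least 7), quantile normalization, median-centring, a floor of 32, a limit of 2-fold, the replicate block, arrays left out and a muscle covariate. Same-numbered arrays of the groups had deviations that correlated at -0.03, 0.00 and 0.10, so the numbers were not taken as pairs.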

Additional observations from a re-analysis of the deposited data

How the results depend on the processing

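The 95 calls at an adjusted p under 0.05 became 345 in a fit over all 27 arrays, 286 with an intensity trend and robust prior, 203 with array weights, 290 after a filter on low values, 53 with the mean of probe sets and 422 over 27 arrays with the muscle mean as covariate. They became 0 with the most variable probe set, with the replicate block, with the muscle mean as covariate, without the irradiated arrays that carry muscle transcripts and without the sham arrays with Rag1, and 0 to 0 when any array was left out. Leaving out the muscle arrays or the Rag1 arrays left 1 array in a group, assumed to vary like the other group, so those counts say nothing about stability. Apart from the fits with 1 array in a group and the low-value filter, 85 to 95 of the called genes kept an unadjusted p under 0.01. Under the low-value filter 71 of the 95 were tested and all 71 were called. These genes were chosen on the same arrays, and leaving arrays out could not turn their direction. With the most variable probe set 3 of 95 turned. With a floor of 32 the direction was kept by 94 of 95. At an unadjusted p of 0.01 the 659 genes became 1119 over 27 arrays with the muscle covariate and 340 with a 2-fold limit, and 480 to 677 when an array was left out. Without the Rag1 sham arrays 277 were higher and 206 lower, and after median-centring 189 and 415, against 176 and 483. The random variance t test, the fit over 27 arrays, the intensity trend and the replicate block leave each gene's change as it was. No direction could turn under them. The interaction gave 3 calls without the muscle arrays, 1810034E14Rik, Kif4 and Pole, whose adjusted p was over 0.93 with all arrays; they rest on irradiated array 3 alone, with the spread taken from the other groups. With the most variable probe set 5 named genes reversed: Ercc5 (-0.11), Nusap1 (1.21), Rad51ap1 (1.25), Slc4a1 (0.60) and Themis (0.38). The comparison of 15 with 12.5 Gy gave 0 calls throughout. Signal near background limits 7 of the rises and 10 of the falls, whose means were under 7. The causes of these differences were not tested.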
